A study of Mus musculus with 6 samples.

Results

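The 10 genes described here encode parts of the machinery that starts, branches and takes apart actin filaments. They were given as a list by name: Actb (beta-actin), Actr2, Actr3, Arpc1b, Arpc2, Arpc3 and Arpc5 (subunits of the Arp2/3 complex), Was (the Wiskott-Aldrich syndrome protein, WASP), Cfl1 (cofilin-1) and Coro1a (coronin-1A). Each symbol was matched to its Ensembl identifier through GENCODE M21, an annotation of the mouse build GRCm38. All 10 were found among the 24965 genes of the deposited table, and all 10 passed the filter on low values. No measured value entered the choice, although earlier results from these libraries were known when the list was made.

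Actin monomers do not readily form a new filament by themselves, so cells use nucleators. The Arp2/3 complex binds the side of an existing filament and starts a branch there once a nucleation-promoting factor has switched it on, and in blood cells WASP does this downstream of the GTPase Cdc42. Cofilin severs ageing filaments and returns monomers to the pool, while coronins bind filaments and help to dismantle branches. In hematopoietic cells this branched network drives the leading edge in migration and the contacts that cells form with their surroundings.

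The RNA of donor cells taken back from recipients at 6 h after transplantation of bone marrow (BMT) was sequenced, with 3 libraries per genotype. Bone marrow cells of WT or Hemgn-/- donors, both CD45.2+, were transplanted into CD45.1+ recipients that had received 9 Gy of irradiation in a split dose. The Hemgn-/- mice carry a whole-body disruption made with zinc finger nucleases on the C57BL/6 background, and the study used young adult mice of both sexes with WT littermates as controls. The labels call the sorted cells CD45.2+Lin-Sca-1+, whereas the methods of the study call them LSK cells, which also carry c-Kit, and the sources differ on the library kit (TruSeq or Smart-Seq2). The study described the 3 libraries of a genotype as biological replicates, without saying which animals each came from, so the p-values measure the spread between these libraries.

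Values are FPKM (fragments per kilobase of annotated exon, divided by the total of the library). Low FPKM values rose in whole steps, which gave library totals of 23668015 to 28897360 fragments, and the 10 genes stood on 1053 to 162392 fragments each, so that counting error was small beside the spread between libraries. Hemgn itself was at 5.64, 2.96 and 4.68 FPKM in WT libraries and at 0.755, 0.913 and 1.60 FPKM in Hemgn-/- libraries. WT replicate 2 stood somewhat apart among 4052 well expressed genes (mean of at least 10 FPKM). There 2.74% of these genes were at least 1.5-fold away from the mean of the other WT libraries, on FPKM + 1. By the same measure within each genotype the share was 0.716% to 1.60% for the other 5 libraries. The labelled population was not well matched by its defining transcripts. The 10 HSPC markers lay between 0.00290 and 17.3 FPKM, with Ly6a, the Sca-1 gene, at 8.27 to 17.3 and Kit at 5.50 to 7.24. Summed, the HSPC markers reached 34.0 to 40.5 FPKM in WT and 46.3 to 55.2 FPKM in Hemgn-/- libraries. The 8 neutrophil and granulocyte precursor markers summed to 71810 to 77490 FPKM in WT and 45930 to 51189 FPKM in Hemgn-/- libraries. Of these, Ngp alone was at 26488 to 46692 FPKM over the 6 libraries. The cells are therefore called donor cells below.

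On the deposited scale 5 of the 10 genes were above 1000 FPKM in every library. Averaged over the 6 libraries, Cfl1 was at 2010 FPKM, Coro1a at 1847, Arpc5 at 1631, Actb at 1370 and Arpc2 at 1167. Neighbours among these 5 had overlapping ranges. A gap of 3.05-fold separated Arpc2 from Arpc1b, at 382 FPKM. Arpc1b and Actr3 (347 FPKM) overlapped in range, although Arpc1b was the higher of the pair in 6 of 6 libraries. Actr2 (127 FPKM), Was (57.6 FPKM) and Arpc3 (18.9 FPKM) each lay apart from the gene above. Together the 10 genes made up 2.31% to 2.48% of all FPKM in WT libraries and 2.53% to 2.63% in Hemgn-/- libraries. Their summed FPKM overlapped, at 8658 to 9162 in WT and 8713 to 9405 in Hemgn-/- libraries. The FPKM total of the library, which divides these sums, was 369534 to 374913 in WT and 343858 to 358187 in Hemgn-/- libraries.

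The subunits of a single complex thus differed widely in level, from 18.9 FPKM for Arpc3 to 1631 FPKM for Arpc5. The length that divides the counts bears on this order. The FPKM values use all annotated exon bases, which for Arpc3 are 2762 bases against 899 in its principal transcript, and for Arpc1b 5115 against 1394. Per kilobase of the principal transcript, a comparison added after the values were seen, Arpc3 was at 58.0 on average. Arpc1b was then at 1402 and Arpc2 at 1690, so the size of the gap between them also rests on the length used. Their ranges stayed apart, at 1340 to 1487 for Arpc1b and 1568 to 1852 for Arpc2. Arpc3 remained the lowest of the 10 on this scale, but its range of 42.7 to 68.1 then overlapped that of Was (42.0 to 73.1). Coro1a (2715 to 3490) lay above Cfl1 (2198 to 2579) without overlap, so the order of the pair at the top depends on the length used. Differences between the genotypes are not touched by this choice.

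**Figure D1:**
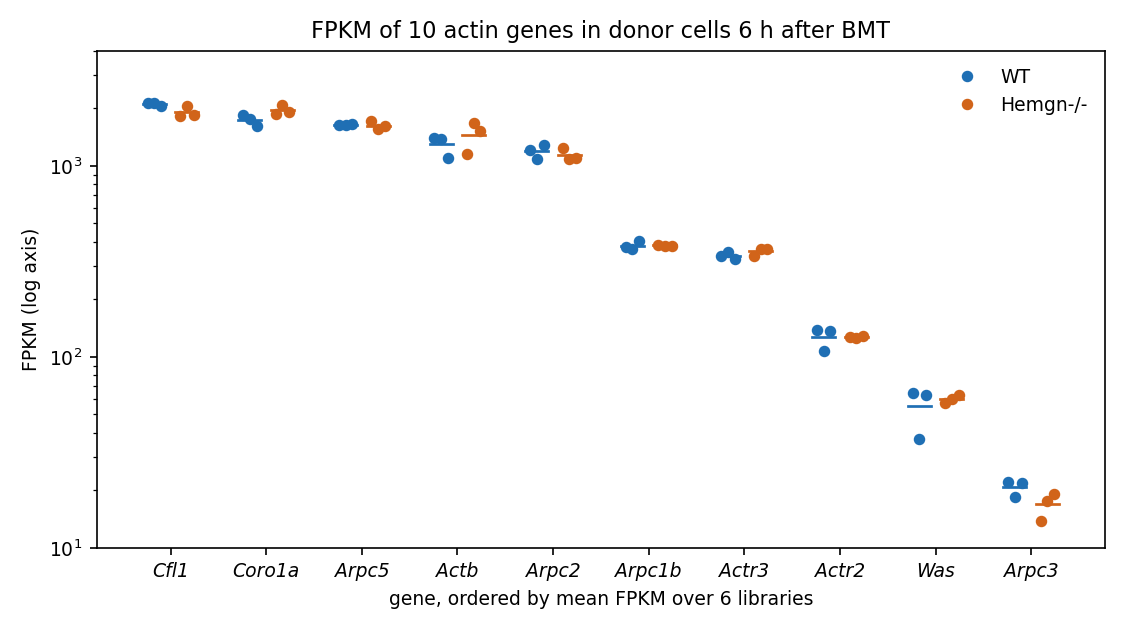
FPKM of the 10 genes (log axis) in the 3 WT (blue) and 3 Hemgn-/- (orange) libraries, 1 point per library and a bar at each group mean, ordered by the mean over 6 libraries. The genes span 13.9 to 2134 FPKM, and the 2 colours overlap for every gene except Coro1a, with Was low in WT replicate 2 at 37.3 FPKM.

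The question put to these genes was whether donor cells without Hemgn carried more or less of their transcripts at 6 h after BMT. None of the 10 genes passed the test in either direction, with limma on log2(FPKM + 1) and Benjamini-Hochberg adjustment over all 13739 genes tested. Their adjusted p-values ran from 0.213 to 0.976. Over all genes 6.46% passed at an adjusted p under 0.05 (4.37% higher and 2.09% lower in Hemgn-/- libraries). Among genes with a mean of at least 10 FPKM, as all 10 have, 13.5% passed. A count of 0 among 10 is close to the share over all genes. The 10 genes are too few to set it apart from the higher share. At an unadjusted p under 0.05 there were 3 of the 10 genes (Cfl1, Coro1a and Arpc3), against 21.4% of all genes. With limma's voom on the recovered fragments the counts were also 0 and 3, and under the other alternatives 0 to 2 of the 10 genes had an unadjusted p under 0.05. At the thresholds used in the study (unadjusted p under 0.05 and at least 1.5-fold) the count was 0 of 10, against 6.83% of all genes.

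How far these data limit a difference can be read from the intervals. The log2 fold changes, Hemgn-/- minus WT, lay between −0.30 and 0.16, with a median of 0.0072 beside 0.087 over all genes tested, and 6 were above 0 and 4 below. For 8 of the 10 genes the 95% interval lay inside 1.5-fold in both directions (0.58 on the log2 scale), against 49.2% of all genes and 76.6% of genes with a mean of at least 10 FPKM. The exceptions were Arpc3, whose interval ran from −0.60 to −0.0015, and Was, from −0.27 to 0.59. The groups did not overlap for 1 of the 10 genes, Coro1a, against 27.4% of all genes. Standard errors were 0.055 to 0.19, with a median of 0.073, and the median over well expressed genes was 0.102.

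**Figure D2:**
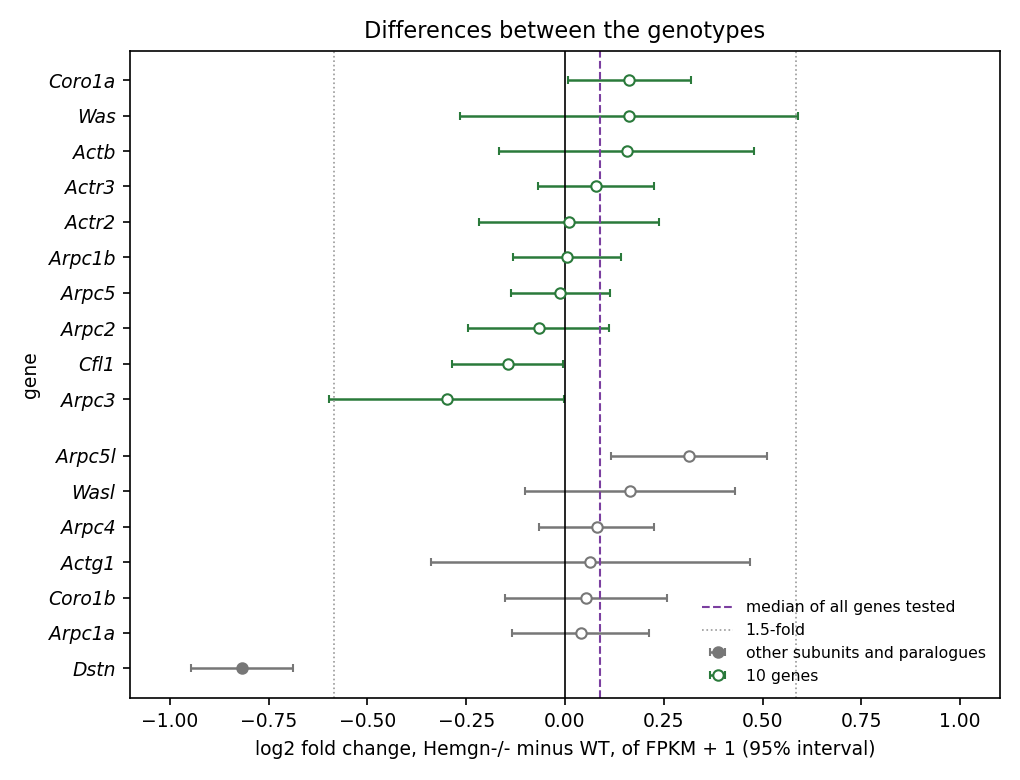
Log2 fold change of FPKM + 1, Hemgn-/- minus WT, with its 95% interval from limma, for the 10 genes (green) and for their paralogues and the remaining Arp2/3 subunits that were tested (grey), filled where the adjusted p was under 0.05. The green points are all open and lie between −0.30 and 0.16, and Dstn at −0.82 is the only filled point. Dotted lines mark 1.5-fold and the dashed line the median of all genes, 0.087.

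Actb, on chromosome 5 from 142903115 to 142906754, encodes the main cytoplasmic actin. It was at 1404, 1380 and 1094 FPKM in WT replicates 1, 2 and 3 and at 1159, 1673 and 1513 FPKM in Hemgn-/- replicates 1, 2 and 3. The groups overlapped, with WT replicate 3 and Hemgn-/- replicate 1 low and Hemgn-/- replicate 2 the highest. The log2 fold change was 0.16 (standard error 0.14, adjusted p = 0.571 from limma), and it ran from 0.040 without WT replicate 3 to 0.31 without Hemgn-/- replicate 1. Actg1, the gamma-actin paralogue, had 130, 179 and 117 FPKM in WT and 118, 177 and 150 FPKM in Hemgn-/- libraries, and the same libraries were the lowest of each group.

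Of the Arp2/3 subunits, Actr2 and Actr3 are the actin-related proteins that mimic the first monomers of the new branch. Actr2 (chromosome 11, 20062304 to 20112913) was at 138, 107 and 136 FPKM in WT and 128, 125 and 128 FPKM in Hemgn-/- libraries, a log2 fold change of 0.0099 whose sign turned without WT replicate 2, the low library (−0.11). Actr3 (chromosome 1, 125392905 to 125435727) was at 336, 353 and 324 FPKM in WT and 335, 369 and 366 FPKM in Hemgn-/- libraries (log2 fold change 0.078, standard error 0.065). The Hemgn-/- values of Actr2 lay inside its WT range, and those of Actr3 ran up to 369 FPKM against 353 FPKM in WT. Of the 100-base stretches of Actr3, 10.5% also occur in the copy Gm8822, which was at 18.2 to 25.9 FPKM, so reads could be divided between them.

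The 4 further subunits on the list hold the complex together and carry it to the mother filament. Arpc2 (chromosome 1, 74236084 to 74268209), part of the core of the complex, was at 1214, 1089 and 1279 FPKM in WT and 1237, 1083 and 1101 FPKM in Hemgn-/- libraries, a log2 fold change of −0.066 (standard error 0.078). Arpc5 (chromosome 1, 152766542 to 152775597) had the narrowest WT values of the 10 genes for its level, 1626, 1629 and 1655 FPKM, and was at 1714, 1552 and 1607 FPKM in Hemgn-/- libraries (log2 fold change −0.012, standard error 0.055). For both genes the groups overlapped.

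Arpc1b (chromosome 5, 145114215 to 145130705) encodes the form of the ARPC1 subunit that prevails in blood cells. It was at 375, 365 and 405 FPKM in WT and 386, 381 and 381 FPKM in Hemgn-/- libraries, so that all 3 Hemgn-/- values fell within the WT range, and its log2 fold change was 0.0044 (standard error 0.060, 95% interval −0.13 to 0.14). Its annotated transcripts share 1.89% of their 100-base stretches with Gm5637, at 41.9 to 55.4 FPKM. They share 15.1% with the neighbouring gene Pdap1, at 10.2 to 11.9 FPKM. Whether the counting used strand is not given in the sources used here.

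Arpc3 (chromosome 5, 122391878 to 122414184) had the lowest level and the lowest log2 fold change of the 10 genes. It was at 22.2, 18.5 and 21.9 FPKM in WT and 13.9, 17.5 and 19.2 FPKM in Hemgn-/- libraries, where Hemgn-/- replicate 3 lay above WT replicate 2. The log2 fold change was −0.30 (standard error 0.13, adjusted p = 0.231 from limma), and the adjusted p ran from 0.123 to 0.437 over the 15 alternatives. It was below 0 under all of them.

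Among the subunits outside the list, Arpc4, which pairs with Arpc2 in the core, was at 146, 135 and 140 FPKM in WT and 147, 143 and 154 FPKM in Hemgn-/- libraries. Arpc1a, the second form of ARPC1, ranged from 59.6 to 68.1 FPKM over the 6 libraries. Arpc5l, the second form of ARPC5, was at 12.3, 11.6 and 12.5 FPKM in WT and 15.3, 15.2 and 15.5 FPKM in Hemgn-/- libraries, without overlap, but it did not pass the test (log2 fold change 0.31, adjusted p = 0.0725 from limma). It passed only after rescaling to the same FPKM total. Actr3b reached 0.952 FPKM at most and was not tested. Of the 9 Arp2/3 subunits tested, 0 passed with limma or with voom, and 2 had an unadjusted p under 0.05.

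Was (chromosome X, 8081453 to 8090498) was at 64.9, 37.3 and 63.2 FPKM in WT and 57.2, 60.1 and 62.8 FPKM in Hemgn-/- libraries. WT replicate 2 lay far below the other 5 libraries, which ran from 57.2 to 64.9. The log2 fold change was 0.16 with all 6 libraries (standard error 0.19, adjusted p = 0.660 from limma) and −0.093 without WT replicate 2, so its direction rests on that library. Wipf1, which binds and stabilizes WASP, was low in the same library, at 19.3, 8.99 and 17.8 FPKM in WT and 17.7, 18.0 and 18.3 FPKM in Hemgn-/- libraries. Cdc42, the GTPase that activates WASP, was at 565, 591 and 562 FPKM in WT and 632, 620 and 589 FPKM in Hemgn-/- libraries (log2 fold change 0.099, adjusted p = 0.353 from limma).

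Cfl1 (chromosome 19, 5490455 to 5495201) had the highest mean FPKM of the 10 genes and ranked 10 among all genes of the table. It was at 2133, 2134 and 2060 FPKM in WT and 1819, 2063 and 1848 FPKM in Hemgn-/- libraries. Hemgn-/- replicates 1 and 3 lay below all WT libraries, while Hemgn-/- replicate 2 lay just above the lowest WT value. The log2 fold change was −0.15 (standard error 0.061, 95% interval −0.28 to −0.0052, unadjusted p = 0.0437 and adjusted p = 0.217 from limma), a mean of 2109 ± 42.4 FPKM against 1910 ± 133 FPKM (SD, n = 3 libraries each). The adjusted p ran from 0.0577 to 0.60 over the 15 alternatives, lowest after median-ratio scaling.

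Coro1a (chromosome 7, 126699773 to 126707787), the coronin of blood cells, was at 1849, 1761 and 1619 FPKM in WT and 1865, 2082 and 1905 FPKM in Hemgn-/- libraries. Every Hemgn-/- value lay above every WT value, by a margin of 1865 against 1849 at the closest. The log2 fold change was 0.16 (standard error 0.068, 95% interval 0.0071 to 0.32, unadjusted p = 0.0423 and adjusted p = 0.213 from limma), and the adjusted p over the alternatives ran from 0.0509, after rescaling to the same FPKM total, to 0.688, after median-ratio scaling. The differences of Cfl1 and Coro1a were of opposite sign and neither passed. Their sizes moved with the scaling, to −0.25 and 0.059 after median-ratio scaling and to −0.056 and 0.25 after rescaling to the same total.

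No library was low or high for the 10 genes as a group. WT replicates 2 and 3 each held the lowest value of 3 genes, Hemgn-/- replicates 1 and 2 of 2 genes each, and Hemgn-/- replicate 2 the highest value of Actb, Actr3 and Coro1a. Nor did the 10 genes follow a clear common course. In WT replicate 2 their log2 deviations from the mean of each gene ran from −0.59 for Was to 0.090 for Cfl1. The root mean square distance from their mean course over the 6 libraries was lowest for Arpc1b, at 0.062. It was 0.20 for Actb and 0.23 for Was, the highest. Among 946 genes with a mean of at least 50 FPKM, Psma1 (0.030), Mdh1 (0.033), Padi4 (0.034), Bsg (0.035) and Eif1 (0.035) ran closest to that mean course by the same measure. Psma1, a proteasome subunit, ranged from 59.1 to 63.6 FPKM over the 6 libraries.

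Several of the 10 genes have a paralogue that does similar work, and the ratio within a library does not depend on how libraries are scaled. Cfl1 and its paralogue Dstn (destrin, also called actin-depolymerizing factor) form the pair with the largest difference, and Actb and Actg1 are the pair most alike in sequence. Coding bases 4 to 63 of both pairs are shown from the GENCODE M21 transcripts of GRCm38, 5′ to 3′, with bases that differ between the members of a pair in capitals. They are given because the FPKM of a paralogue is only its own where reads can be told apart.
Cfl1: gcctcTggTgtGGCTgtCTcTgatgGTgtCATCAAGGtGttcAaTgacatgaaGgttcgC
Dstn: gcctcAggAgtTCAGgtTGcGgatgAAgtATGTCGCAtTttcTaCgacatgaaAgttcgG
Actb: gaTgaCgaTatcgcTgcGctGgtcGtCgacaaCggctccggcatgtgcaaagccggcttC
Actg1: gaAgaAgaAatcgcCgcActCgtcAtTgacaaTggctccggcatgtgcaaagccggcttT
The stretch of Cfl1 lies on chromosome 19 from 5492497 to 5492556 (plus strand) and that of Dstn on chromosome 2 from 143938385 to 143938444 (plus strand), and they differ at 24 of 60 bases. The stretch of Actb lies on chromosome 5 from 142905624 to 142905683 (minus strand) and that of Actg1 on chromosome 11 from 120348029 to 120348088 (minus strand), and they differ at 10 of 60 bases. All 4 stretches lie in exon 2 of their transcript. Over the whole aligned coding sequence the identity was 68.6% for Cfl1 and Dstn, with at most 20 identical bases in a run, and 88.7% for Actb and Actg1, with at most 62. None of the 6 pairs shared a stretch of 100 coding bases.

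Dstn passed the test, unlike Cfl1. It was at 341, 333 and 324 FPKM in WT and 191, 191 and 184 FPKM in Hemgn-/- libraries, and it fell by 0.82 on the log2 scale (standard error 0.057, adjusted p = 1.3e-04 from limma). All 15 alternatives gave an adjusted p under 0.05 for Dstn, and its annotated transcripts share no 100-base stretch with another annotated gene. The log2 ratio of Cfl1 to Dstn was 2.64, 2.68 and 2.66 in WT and 3.25, 3.43 and 3.32 in Hemgn-/- libraries, which is 6.32-fold against 10.1-fold more Cfl1. The difference of 0.67 was larger than the spread between libraries, with 3 of 3 Hemgn-/- ratios above all WT ratios. An exact two-sided permutation test gave p = 0.1, the smallest that 3 libraries against 3 allow, and 0.3 after adjustment over the 6 pairs.

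The other 5 ratios were closer between the genotypes. Arpc5 to Arpc5l was 6.93, 7.01 and 6.94 in WT and 6.72, 6.58 and 6.61 in Hemgn-/- libraries on the log2 scale, a difference of −0.33 with no overlap (exact permutation p = 0.1, adjusted 0.3). Arpc5 was 99.3% of the FPKM of that pair in WT and 99.1% in Hemgn-/- libraries. Coro1a to Coro1b differed by 0.11 (exact permutation p = 0.2), Actb to Actg1 by 0.091 (exact permutation p = 0.7) and Arpc1b to Arpc1a by −0.035 (exact permutation p = 0.8). Was to Wasl, the broadly expressed paralogue of WASP, differed by −0.0021 (exact permutation p = 1), with a WT range of 3.15 to 3.95 set by WT replicate 2. Of the Actg1 stretches, 26.0% also occur in the copy Gm12715, at 3.68 to 13.3 FPKM. Coro1b shares 8.67% of its stretches with Ptprcap, which was at 162 to 220 FPKM and thus above Coro1b itself (64.9 to 79.0 FPKM), and Cfl1 shares 9.27% with Snx32 (0.768 to 3.75 FPKM). Reads of these genes could be divided, which leaves the ratios that use them uncertain.

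**Figure D3:**
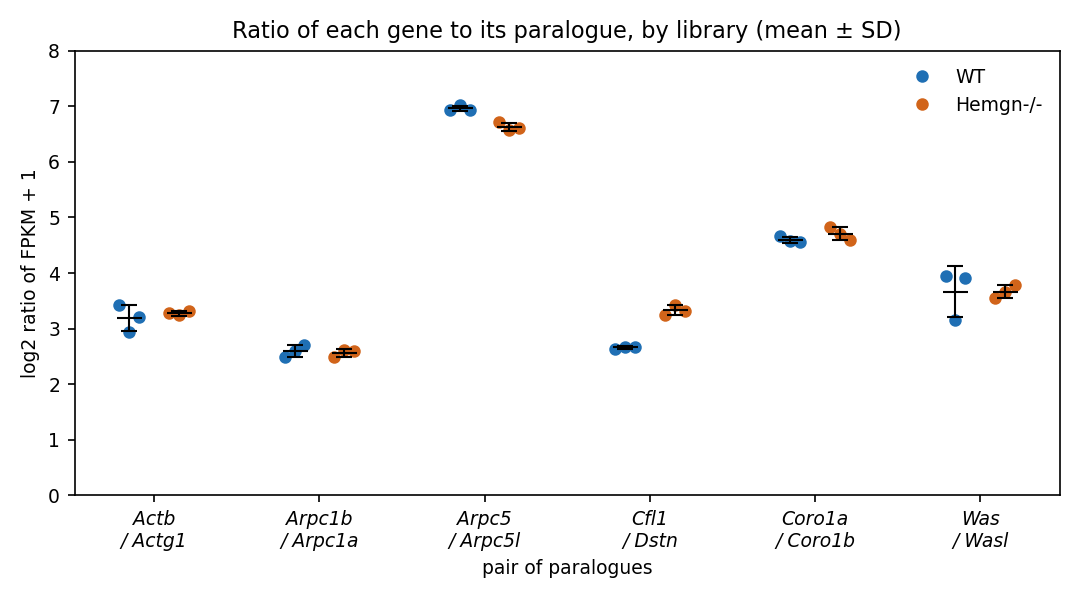
Log2 ratio of FPKM + 1 of each gene to its paralogue in every library, WT in blue and Hemgn-/- in orange, with the mean and SD of each group of 3 in black. The Cfl1 to Dstn ratios have means of 2.66 in WT and 3.33 in Hemgn-/- libraries with no overlap, the Arpc5 to Arpc5l ratios sit lower in Hemgn-/- libraries, and the groups of the other 4 pairs overlap.

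Other genes of the actin pathway were counted on 11 lists by role, 146 genes with the 10 included, of which 140 were in the table and 119 were tested. Among these 119 genes, 4 were higher and 3 lower in Hemgn-/- libraries at an adjusted p under 0.05, which is 5.88% beside 6.46% of all genes. Without the 10 genes the count was 7 of 109, or 6.42%. The share of actin genes that passed was thus near the background in both cases. The median log2 fold change of the 119 genes was 0.059, against 0.087 for all genes tested. By role, for the lists reported here, 1 of 3 actin isoforms passed, 1 of 18 genes of the cofilin family, its regulators and monomer-binding proteins, 1 of 10 capping and severing proteins and 2 of 9 genes of myosin II and tropomyosins. No gene passed limma or voom among 18 nucleation-promoting factors and partners (3 with an unadjusted p under 0.05), 9 formins and other linear nucleators (1), 5 coronins (1), 17 cross-linkers, elongators and membrane linkers (1) or 3 SRF-MRTF factors (0).

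On the deposited values none of the genes that passed encodes an Arp2/3 subunit or was on the list of nucleation-promoting factors and partners, whereas Arpc5l, Hcls1 and Nckap1l passed after rescaling to the same FPKM total. Tpm3, a tropomyosin that coats unbranched filaments, fell by 1.38 on the log2 scale, but 15.8% of its 100-base stretches also occur in Tpm3-rs7, a copy that was at 23.3 to 26.0 FPKM in WT and 479 to 526 FPKM in Hemgn-/- libraries, so its value is uncertain. Tpm4, another tropomyosin, rose from 166, 160 and 150 FPKM to 222, 203 and 216 FPKM (log2 fold change 0.43, adjusted p = 0.0083 from limma). Acta2, smooth muscle actin, rose by 0.60 from a low level of 7.67 ± 0.358 FPKM in WT to 12.2 ± 1.39 FPKM (SD, n = 3 libraries each). Arhgdia rose by 0.34 and Dock2, a Rac activator of blood cells, by 0.31, while Gsn (gelsolin, which severs and caps filaments) fell by 0.26. Their adjusted p-values from limma were 0.0156 for Acta2, 0.0347 for Arhgdia, 0.0484 for Dock2 and 0.0455 for Gsn. Dstn and Tpm3 passed under all 15 alternatives, Tpm4 under 13, Acta2 under 9, Gsn and Arhgdia under 5 each and Dock2 under 4. With any library left out, Gsn, Arhgdia and Dock2 did not pass, Acta2 passed only without Hemgn-/- replicate 1, and Tpm4 passed in each case except without Hemgn-/- replicate 3.

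The upstream regulators named for their place in this pathway did not pass on the deposited values. Rac2 was at 592, 614 and 567 FPKM in WT and 545, 610 and 568 FPKM in Hemgn-/- libraries. Rac1, which activates the WAVE complex, was at 23.2, 50.1 and 27.2 FPKM in WT and 21.6, 18.4 and 15.4 FPKM in Hemgn-/- libraries, without overlap and with WT replicate 2 the high value. Its log2 fold change was −0.76 (standard error 0.25, unadjusted p = 0.0160 and adjusted p = 0.127 from limma), which is past the unadjusted thresholds used in the study. Nckap1l, the blood cell subunit of the WAVE complex, was at 58.7, 60.9 and 56.8 FPKM in WT and 70.2, 66.7 and 72.2 FPKM in Hemgn-/- libraries, without overlap (log2 fold change 0.24, adjusted p = 0.0866 from limma). Wasf2, a WAVE protein, had a log2 fold change of 0.13 and Hcls1, a cortactin relative of blood cells that binds the Arp2/3 complex, of 0.17 (adjusted p = 0.202 from limma). Nckap1l and Hcls1 passed only after rescaling to the same FPKM total. Pfn1 (profilin, −0.17) and Tmsb4x (thymosin beta 4, −0.16), which bind actin monomers, and Srf (0.26), the transcription factor of many actin genes, also stayed above an adjusted p of 0.05.

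**Figure D4:**
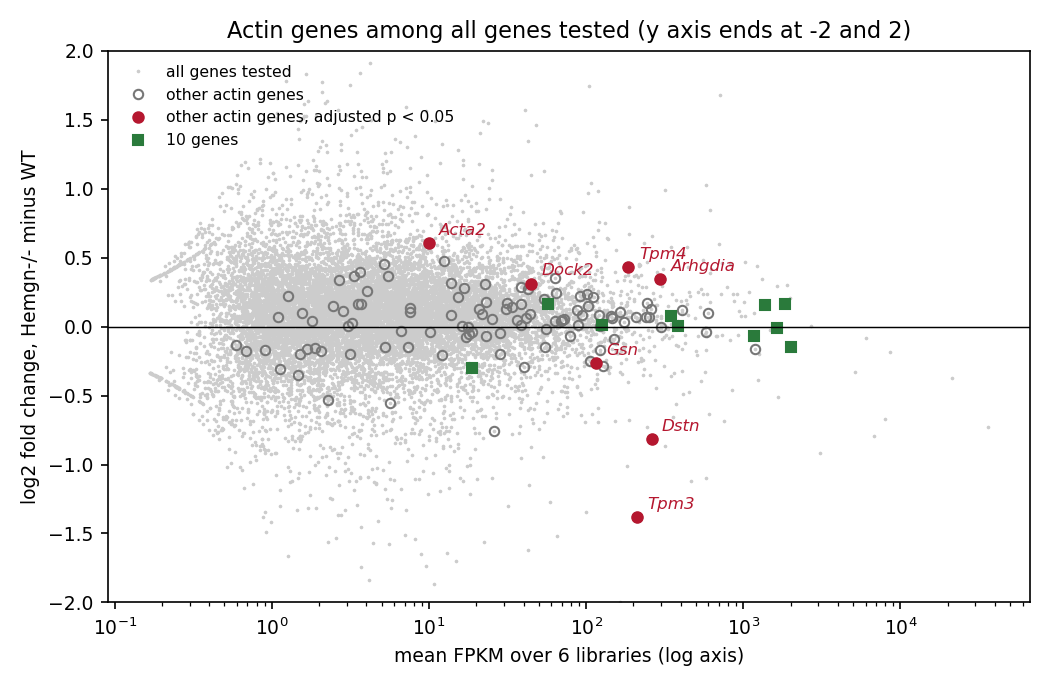
Log2 fold change, Hemgn-/- minus WT, against the mean FPKM over 6 libraries (log axis) for all 13739 genes tested (grey dots, those beyond −2 or 2 not drawn), the other actin genes (open circles, filled red and named where the adjusted p was under 0.05) and the 10 genes (green squares). The green squares lie between −0.30 and 0.16 at means of 18.9 to 2010 FPKM, and of the 7 named genes Gsn at −0.26 lies within that range of fold changes while the other 6 lie beyond it.

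Scaling between libraries moved the signs of small differences but not the calls on the 10 genes. Over all genes the fold changes had a log2 median of 0.087 without rescaling, and of 0.0068, 0.012 and 0.16 with median-ratio scaling, quantile normalization and rescaling to the same FPKM total. The median of the 10 genes was −0.096, −0.033 and 0.095 under these 3 scalings, and 0 of 10 passed under each. Among all genes that passed, 600 were higher and 287 lower without rescaling, 341 and 386 with median-ratio scaling, 368 and 346 after quantile normalization, and 1062 and 238 after rescaling to the same total. For the actin lists the same split was 4 higher and 3 lower without rescaling, then 2 and 3, 3 and 3, and 10 and 2.

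Marker RNA of several cell types differed between the genotypes. Which of these cells carried the RNA of the 10 genes was not measured in these bulk libraries. The counts of markers are at an adjusted p under 0.05, which 6.46% of all genes tested passed. Of the 8 neutrophil and granulocyte precursor markers 5 were lower in Hemgn-/- libraries, and of the 6 erythroid markers tested 3 were lower, with a summed level of 449.6 to 535 FPKM in WT and 27.3 to 42.5 FPKM in Hemgn-/- libraries. Of the 6 B cell markers 3 were higher (1126 to 1189 against 1346 to 1521 FPKM summed), as were 2 of 7 T and NK cell markers (174 to 196 against 201 to 223 FPKM). Of the HSPC markers 2 of 9 tested were higher (Cd34 and Cd48), and of the macrophage and monocyte markers 2 of 8 were higher and 2 lower. Of 6 plasmacytoid dendritic cell markers 1 was higher, and none of 6 megakaryocyte and platelet or 5 endothelial markers passed (unadjusted p under 0.05 for 1 and 2 of them). The part of these shifts in the values of the 10 genes was not tested. In bulk libraries fewer cells of a type and less RNA per cell cannot be told apart.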

How the data were processed

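The authors deposited FPKM values per gene for 6 libraries, without further scaling that the values show. The submitters' processing notes name HISAT2 2.1.0, Bowtie2 2.2.3, TopHat2, HTSeq 0.6.0 and the build GRCm38, with no role given, and the gene annotation is not given in the sources used here. Identifiers were matched to GENCODE M21 (24921 of 24965). Library totals were recovered from the steps of low FPKM values with GENCODE exon lengths, where 95.4% of 13472 genes with at most 100 fragments came out whole within 0.02 in all libraries. Pairs of libraries within a genotype had a chi-square per gene of 17.5 to 35.2, well beyond counting noise, and each was counted as a sample. Amplified fragments are not independent molecules, so counting precision covers counting error only.

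Hemgn-/- and WT libraries were compared on log2(FPKM + 1) with a linear model in limma (version 3.58.1, run in R 4.3.3) that shrinks variances toward a trend with expression and has no covariate. Genes entered when any library exceeded 1 FPKM. The comparison used two-sided p-values and Benjamini-Hochberg adjustment over all genes tested. The added 1 shrinks the fold changes of genes at low FPKM. The script was tested on simulated data. Paralogue ratios were compared with exact permutation tests. Coding sequences of principal transcripts were aligned with Biopython 1.88, and 100-base stretches of transcripts were searched in all other annotated transcripts on both strands. The remaining steps ran in Python 3.11.15 (pandas 2.3.3, numpy 2.4.6), with figures drawn in matplotlib 3.10.9.

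The 10 genes, the actin lists by role and the lists of cell type markers were chosen with earlier results of these data known. Named genes were Hemgn, the 10 genes, their paralogues, all Arp2/3 subunits, up to 4 genes that passed from each other actin list, 10 set regulators and the 5 genes nearest in course. Marker genes, Tpm3-rs7 and genes that share sequence were named after their values were seen. Alternatives tried were 0.1 as the pseudocount, a filter at FPKM above 0 or at a mean FPKM of 1, median-ratio, TPM and quantile scaling, variances without a trend, voom, the replicate number as a block and each library left out in turn. Levels per principal transcript were added after seeing the data. The count of 1 actin list is not reported here.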

Additional observations from a re-analysis of the deposited data

How the results depend on the processing

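None of the 10 genes passed under any of the 15 alternatives. Of all genes, 887 passed, 466 with every gene above 0 FPKM tested, 390 without a variance trend and 251 to 485 with each library left out in turn. On the actin lists 7 passed, 4 with every gene above 0 FPKM, 12 after rescaling to the same total, 2 without a trend and 2 to 4 with each library left out. With the replicate number as a block 636 genes passed, 4 of them on the actin lists and 0 of the 10 genes. Deviations of same-numbered libraries, over all genes tested, correlated at −0.043, −0.0094 and 0.011. Such a correlation cannot settle whether same-numbered libraries were handled together, since shared handling could touch only some genes. The sign of small log2 fold changes turned after median-ratio scaling for Actr2 (−0.093), Actr3 (−0.025) and Arpc1b (−0.099), after quantile normalization for Actr2 (−0.045) and Arpc1b (−0.021), and after rescaling to the same total for Arpc2 (0.022) and Arpc5 (0.077). With each library left out, log2 fold changes ran from 0.040 to 0.31 for Actb, from −0.11 to 0.074 for Actr2, from −0.027 to 0.048 for Arpc1b, from −0.051 to 0.020 for Arpc5 and from −0.093 to 0.30 for Was. The log2 ratio differences then ran from −0.033 to 0.21 for Actb to Actg1, from −0.087 to 0.019 for Arpc1b to Arpc1a and from −0.26 to 0.14 for Was to Wasl. The cause was not tested. With 3 libraries per genotype and standard errors up to 0.19, differences of Was and Arpc3 beyond 1.5-fold lay within their intervals.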
